A study of Canis lupus familiaris with 12 samples.

Results

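Messenger RNA of 7 genes of the extracellular matrix was followed in a dog melanoma line: the fibrillar collagen genes COL1A1, COL1A2 and COL2A1, the proteoglycan gene ACAN, the matrix metalloproteinase gene MMP9, and the metalloproteinase inhibitor genes TIMP1 and TIMP2. Members were the probes whose transcript accession belongs to 1 of these genes in a RefSeq gene table of the dog. All 7 genes were found, among 832 genes that could be named, with 22 of the 43603 probes on the array. Of these 22 probes, 19 passed the filter on low signal, which kept a probe when every array of some group showed it well above background. COL1A1 had 4 of 4 probes past this filter, COL1A2 6 of 6, COL2A1 2 of 3, ACAN 2 of 2, MMP9 2 of 4, TIMP1 2 of 2 and TIMP2 its only probe.

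The cells were Mi/CMM1, an established line from an oral melanoma of a dog, and RNA was hybridised to 12 Agilent arrays labelled with Cy3. Untreated cells (control) had 3 arrays, and so had cells exposed to each of piroxicam, carprofen and robenacoxib, which are cyclooxygenase inhibitors of the nonsteroidal anti-inflammatory class. The control label names no vehicle, and the series design calls the replicates biological. Dose and time are in conflict: the sample labels and the design text give 116 µM for piroxicam, 779 µM for carprofen and 6 h, while the treatment protocol gives 779 µM for piroxicam, 116 µM for carprofen and 24 h. Robenacoxib is given at 156 µM in both. The drugs were thus never at a matched dose, and a comparison between drugs compares the arrays as treated.

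The COL1A1 and COL1A2 chains twist together into type I collagen, the main fibre of skin, bone and tumour stroma, which is made in quantity by fibroblasts and also by some melanoma cells. COL2A1 and ACAN encode type II collagen and aggrecan, the fibre and the large water-holding proteoglycan of cartilage. MMP9, gelatinase B, cuts denatured collagen and basement membrane collagen and is known for its part in invasion, and TIMP1 and TIMP2 encode secreted proteins that bind and block metalloproteinases.

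Levels are log2 signals relative to the 75th percentile of the same array, called log2 levels, and they compare a probe with itself across arrays, not 1 gene with another. Where a gene had several tested probes, the one brightest on average stands for it, called its reading probe. Differences come from 1 limma fit to all 12 arrays, with its standard error (SE) and p-values adjusted by the Benjamini-Hochberg method over 31996 tested probes, and a threshold of 0.05. Between 66.2% and 80.0% of the spots of an array were well above background. Across the 28346 probes well above background on all 12 arrays, the correlation between arrays of 1 group was 0.9973 to 0.9991. The arrays shared slides unevenly: the controls had a slide with carprofen 1, piroxicam 1 and 2 one with carprofen 2 and 3, and piroxicam 3 one with the robenacoxib arrays. A fit with slide as a block therefore rests, for carprofen against control, on carprofen 1 alone. Piroxicam and robenacoxib share no slide with control. Their block estimates against control run only through carprofen 1, and those of robenacoxib also through piroxicam 3. The reference matters as well: relative to 8 spiked-in control probes instead of the percentile, all differences from control rise by 0.17 for piroxicam arrays, 0.34 for carprofen arrays and 0.30 for robenacoxib arrays. The median of all tested probes then stood at 0.15, 0.32 and 0.27, against -0.023, -0.023 and -0.030, and 93.1%, 99.7% and 99.3% of the called probes were higher, against 42.5%, 40.7% and 43.1%. As the samples are bulk RNA, fewer cells that express a gene and less of its RNA per cell cannot be told apart.

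Against control, the members that passed the test were all lower, on the 75th-percentile scale, and none was higher. With carprofen 4 of the 7 genes fell (COL1A1, COL1A2, TIMP1 and TIMP2), where 32.8% of all tested probes were called, 13.3% higher and 19.5% lower. With robenacoxib 3 of 7 fell (COL1A1, TIMP1 and TIMP2), where 22.2% of all probes were called, 9.57% higher and 12.6% lower. With piroxicam only COL1A2 fell, 1 of 7, where 28.0% of all probes were called, 11.9% higher and 16.1% lower, so the count for this drug is no higher than the share for the array as a whole. All these changes were small, between 1.07-fold and 1.17-fold. Relative to the spiked-in probes the same genes had positive differences in all 3 comparisons, and with slide as a block the counts were 1 with carprofen (COL1A1), 0 with robenacoxib and 0 with piroxicam, where the block called 16.4%, 1.41% and 5.09% of all probes. For piroxicam and robenacoxib, which share no slide with control, the median SE over all probes was 0.092 and 0.11 with the block. Without it the median SE was 0.053 for both, so their 0 counts do not show that a difference was absent. The parts that reference and slide have in these differences were not tested.

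In the order piroxicam, carprofen, robenacoxib, the median difference from control over the 7 genes was -0.0022, -0.18 and -0.074, beside -0.023, -0.023 and -0.030 over all tested probes. An overall F-test across the 4 groups called 4 of 7 members (COL1A1, COL1A2, TIMP1 and TIMP2), where it called 48.0% of all probes, and 2 of 7 (COL1A1 and TIMP1) with slide as a block, where it called 36.3%. Groups did not overlap between carprofen and control for 5 members, all lower, where 47.1% of all probes did not overlap. For robenacoxib the count was 4, beside 41.6%, and for piroxicam it was 2, beside 47.8%.

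**Figure D1:**
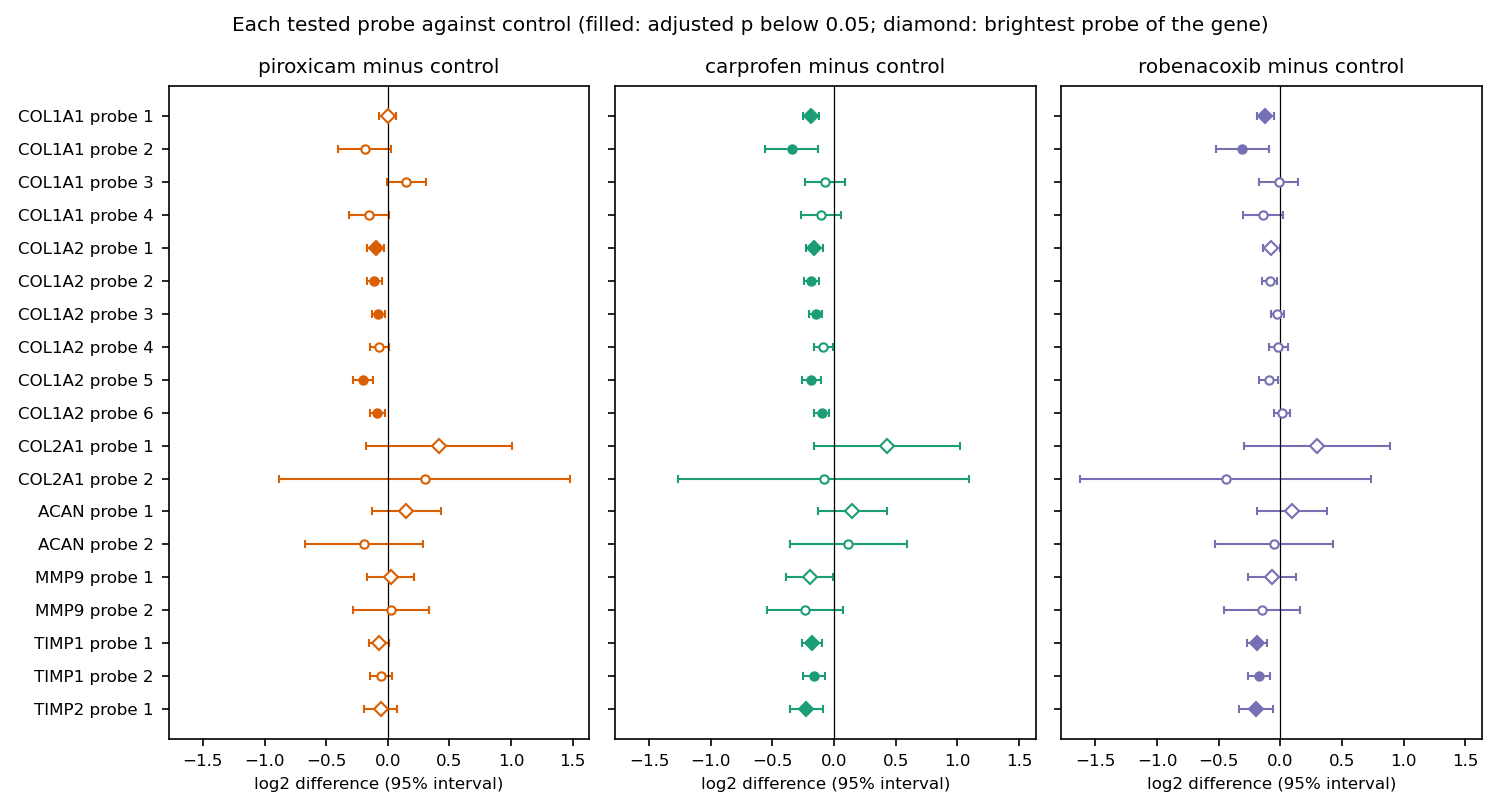
Log2 difference from control of each of the 19 tested probes, with its 95% interval from limma, for piroxicam, carprofen and robenacoxib on a shared horizontal axis. Diamonds mark the brightest probe of a gene, filled symbols have an adjusted p below 0.05, and the filled symbols, 5, 10 and 5 in number, all lie left of 0 on the 75th-percentile scale, while COL2A1 has the widest intervals.

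COL1A1, the chain that is doubled in type I collagen, was bright on all arrays, with processed signals of 21310.5 to 25010.8 on its reading probe. Its log2 level was 3.410, 3.447 and 3.401 in the 3 controls and 3.402, 3.457 and 3.392 with piroxicam. With carprofen it was 3.2775, 3.1843 and 3.2402, and with robenacoxib 3.296, 3.298 and 3.301. Control and piroxicam arrays thus overlapped entirely, while every carprofen and every robenacoxib array lay below the lowest of them, and the order from high to low was control and piroxicam, then robenacoxib, then carprofen. The means were 3.42 ± 0.02 in control, 3.42 ± 0.04 with piroxicam, 3.23 ± 0.05 with carprofen and 3.30 ± 0.003 with robenacoxib (SD, n = 3 each).

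COL1A1 fell by 0.19 on the log2 scale with carprofen (SE 0.030, limma adjusted p = 0.0016), which is 1.14-fold, although relative to the spiked-in probes it was higher by 0.16. With robenacoxib it fell by 0.12 (SE 0.030, limma adjusted p = 0.019), or 1.09-fold, and here it was higher by 0.18 relative to the spiked-in probes and by 0.0087 in the authors' deposited values. With piroxicam the difference was -0.0022 (95% interval -0.070 to 0.065). The carprofen call was kept with slide as a block (-0.14, limma adjusted p = 0.046) and whichever 1 array was left out, with differences of -0.21 to -0.16, but not in the authors' deposited values (-0.077, limma adjusted p = 0.22) or under normexp with quantile normalization (-0.088, limma adjusted p = 0.16). The robenacoxib call was not kept with slide as a block (-0.018, limma adjusted p = 0.93), under quantile normalization (-0.069, limma adjusted p = 0.11), under normexp with either scaling (-0.058 and -0.0028), without control 2 (limma adjusted p = 0.073) or without robenacoxib 2 (limma adjusted p = 0.053).

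The other 3 probes of COL1A1 were much dimmer, with mean control signals of 387.5, 329.9 and 95.8. The second probe fell with carprofen by 0.34 (limma adjusted p = 0.021) and with robenacoxib by 0.31 (limma adjusted p = 0.046). The remaining pair of probes passed in neither comparison, so 2 of 4 probes were called lower with each of these drugs and 0 of 4 with piroxicam. Carprofen's difference was below 0 on all 4 probes.

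COL1A2, the partner chain of type I collagen, gave processed signals near the top of the range, 130952 to 144662 on its reading probe, and no spot of any array was saturated (0 in all). Its log2 levels were 6.04, 5.99 and 5.99 in control and 5.86, 5.92 and 5.95 with piroxicam. They were 5.88, 5.80 and 5.86 with carprofen and 5.95, 5.92 and 5.94 with robenacoxib. Every treated array lay below every control. Carprofen and piroxicam overlapped, as did piroxicam and robenacoxib, while carprofen lay below robenacoxib on every array.

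COL1A2 fell by 0.16 on the log2 scale with carprofen (SE 0.031, limma adjusted p = 0.0039, 1.12-fold) and by 0.099 with piroxicam (SE 0.031, limma adjusted p = 0.041, 1.07-fold), and relative to the spiked-in probes both differences turned positive, 0.18 and 0.076. With robenacoxib the difference was -0.074 (95% interval -0.14 to -0.0036, limma adjusted p = 0.13). Of its 6 probes, 5 were called lower with piroxicam, 5 with carprofen, and 0 with the third drug. The probe spotted 5 times on the array had the lowest SD of these 6 among the controls, 0.0064, and was lower by 0.11 with piroxicam (limma adjusted p = 0.017) and by 0.18 with carprofen (limma adjusted p = 0.0010).

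The carprofen call on COL1A2 was kept whichever 1 array was left out, but not with quantile normalization (-0.038), in the authors' deposited values (-0.12) or, on the reading probe, with slide as a block (-0.13, limma adjusted p = 0.075). With the block 3 of the 6 probes were still called lower with carprofen. The piroxicam call was lost when any 1 of 9 arrays was left out (control 1, 2 and 3, piroxicam 1 and 2, carprofen 3, and robenacoxib 1, 2 and 3), with limma adjusted p-values of 0.053 to 0.14, and with slide as a block (-0.068, limma adjusted p = 0.51). Quantile normalization did not keep the piroxicam call either.

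COL2A1, the cartilage collagen, was close to background. Its reading probe had log2 levels of -6.20, -6.85 and -5.95 in control, and -5.88, -5.72 and -6.15 with piroxicam. The levels were -6.34, -5.72 and -5.65 with carprofen and -5.96, -6.34 and -5.80 with robenacoxib. All groups overlapped, and the processed signals ran from 18.2 to 47.4, with the probe well above background on all arrays but 1 of piroxicam. The differences from control were 0.41, 0.43 and 0.30 for piroxicam, carprofen and robenacoxib, each with an SE of 0.26, and none passed the test (limma adjusted p = 0.28, 0.25 and 0.48). COL2A1 was called higher with piroxicam (0.57) and carprofen (0.46) under quantile normalization, and with carprofen (0.77) on the spiked-in reference.

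The second COL2A1 probe was dimmer, with a median signal of 22.1 beside 34.2 on the reading probe, and well above background on 8 of 12 arrays. These were 3 of control, 1 of piroxicam, 2 of carprofen and 2 of robenacoxib, so it passed the filter through the controls only. Its differences from control were 0.30, -0.084 and -0.44 with piroxicam, carprofen and robenacoxib, and none was called. Piroxicam 3 stood apart on this probe at -4.82, beside -6.80 and -7.14 on the other piroxicam arrays. With slide as a block this probe was called lower with robenacoxib than with piroxicam (-2.18, limma adjusted p = 0.0062), an estimate that sets the 3 robenacoxib arrays against piroxicam 3 only. Without the block the difference was -0.74. The third probe, spotted 5 times, was well above background on 0 of 12 arrays.

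ACAN, which encodes aggrecan, was detected on all 12 arrays at low signal, 198.9 to 295.7 on its reading probe. Its log2 levels were -3.31, -3.40 and -3.34 in control, -3.32, -3.02 and -3.26 with piroxicam, -3.40, -3.08 and -3.13 with carprofen, and -3.12, -3.51 and -3.13 with robenacoxib. All groups overlapped, and carprofen 1, the carprofen array on the slide of the controls, lay at the control level. The differences from control were 0.15, 0.15 and 0.095 (SE 0.12 each), with 95% intervals of -0.13 to 0.43, -0.13 to 0.43 and -0.19 to 0.38, which reach a rise of up to 0.43 on the log2 scale. Relative to the spiked-in probes ACAN was called higher with all 3 drugs, by 0.32, 0.49 and 0.40. With slide as a block the differences were -0.12, -0.050 and -0.11. The second, dimmer probe was called in none of the comparisons without a slide term, with differences of -0.19, 0.12 and -0.052.

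**Figure D2:**
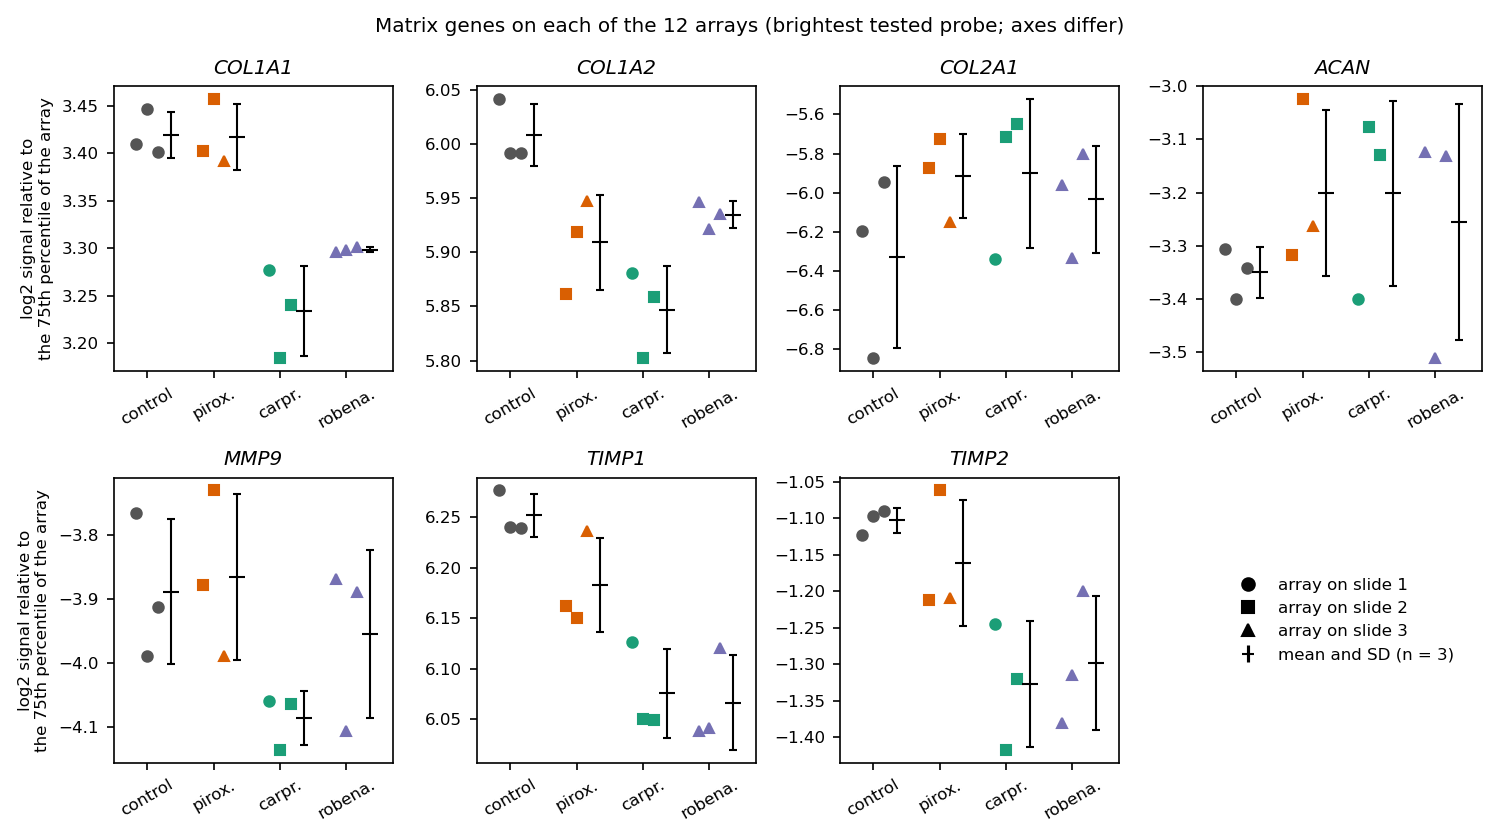
Log2 level of each gene on its brightest tested probe, by array and group, with the mean and SD of the 3 arrays beside the points and the slide given by the symbol; the vertical axes differ between panels. The carprofen points of COL1A1, COL1A2, TIMP1 and TIMP2 all lie below the control points on this scale, a difference that is positive relative to the spiked-in probes, while the groups of COL2A1 and ACAN overlap.

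MMP9, the gelatinase, was also dim, with processed signals of 131.8 to 171.6 on its reading probe. Its log2 levels were -3.76, -3.99 and -3.91 in control and -3.88, -3.73 and -3.99 with piroxicam. With carprofen they were -4.06, -4.13 and -4.06, and with robenacoxib -3.87, -4.11 and -3.89. The carprofen arrays all lay below the controls and below the piroxicam arrays, while piroxicam and robenacoxib overlapped the controls. The difference between carprofen and control was -0.20 (SE 0.085, 95% interval -0.39 to -0.0052), which missed the threshold after adjustment (limma adjusted p = 0.11). With piroxicam it was 0.023 and with robenacoxib -0.066.

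The second MMP9 probe gave -0.23 with carprofen, again without a call. MMP9 with carprofen was called lower under quantile normalization without (-0.30) and with (-0.22) normexp background correction, in the authors' deposited values (-0.28) and on the mean of both probes (-0.22), and relative to the spiked-in probes its difference was 0.15. With robenacoxib it was called higher on the spiked-in reference (0.23) and in no other setting. Of the 2 MMP9 probes that were not tested, 1 was well above background on 0 of 12 arrays, and the other on 1 array each of control, carprofen and robenacoxib.

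TIMP1, a broad metalloproteinase inhibitor, gave processed signals of 142552 to 176703 on its reading probe. Its log2 levels were 6.28, 6.24 and 6.24 in control and 6.16, 6.15 and 6.24 with piroxicam. They were 6.13, 6.05 and 6.05 with carprofen and 6.04, 6.04 and 6.12 with robenacoxib. All treated arrays lay below all controls, though piroxicam 3 did so by less than 0.01, and carprofen and robenacoxib overlapped each other while both lay below piroxicam. The group means ran from 6.25 ± 0.02 in control to 6.18 ± 0.05, 6.08 ± 0.04 and 6.07 ± 0.05 with piroxicam, carprofen and robenacoxib (SD, n = 3 each).

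TIMP1 fell by 0.18 on the log2 scale with carprofen (SE 0.036, limma adjusted p = 0.0050, 1.13-fold) and by 0.19 with robenacoxib (SE 0.036, limma adjusted p = 0.0063, 1.14-fold), and both were positive, 0.17 and 0.11, relative to the spiked-in probes. With piroxicam the difference was -0.069 (95% interval -0.15 to 0.012). Both TIMP1 probes were called with carprofen and with robenacoxib. Both calls on the reading probe were kept whichever 1 array was left out, but neither was kept with slide as a block (-0.13 and -0.19, limma adjusted p = 0.080 and 0.24), with quantile normalization (-0.043 and -0.12) or in the authors' deposited values (-0.0099 and -0.11).

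TIMP2, the inhibitor that also takes part in activating the pro-form of MMP2, was read on 1 probe at signals of 833.3 to 1090.4. Its log2 levels were -1.12, -1.10 and -1.09 in control and -1.21, -1.06 and -1.21 with piroxicam. They were -1.24, -1.42 and -1.32 with carprofen and -1.38, -1.31 and -1.20 with robenacoxib. Piroxicam overlapped the controls, whereas the carprofen and robenacoxib arrays lay below all of them and overlapped each other.

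TIMP2 fell by 0.22 on the log2 scale with carprofen (SE 0.061, limma adjusted p = 0.019, 1.17-fold) and by 0.20 with robenacoxib (SE 0.061, limma adjusted p = 0.047, 1.14-fold), while relative to the spiked-in probes both differences were positive, 0.12 and 0.10. The piroxicam difference was -0.058 (95% interval -0.19 to 0.078). Quantile normalization (-0.25 and -0.20) and the authors' deposited values (-0.32 and -0.35) kept both calls. With slide as a block the differences were -0.14 and 0.0014 (limma adjusted p = 0.28 and 0.998). The carprofen call was lost without control 2, control 3 or carprofen 2, with limma adjusted p-values of 0.055, 0.056 and 0.070. The robenacoxib call was lost when any 1 of 8 arrays was left out (control 1, 2 and 3, piroxicam 1 and 3, carprofen 3, and robenacoxib 1 and 2), with limma adjusted p-values of 0.056 to 0.14.

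**Figure D3:**
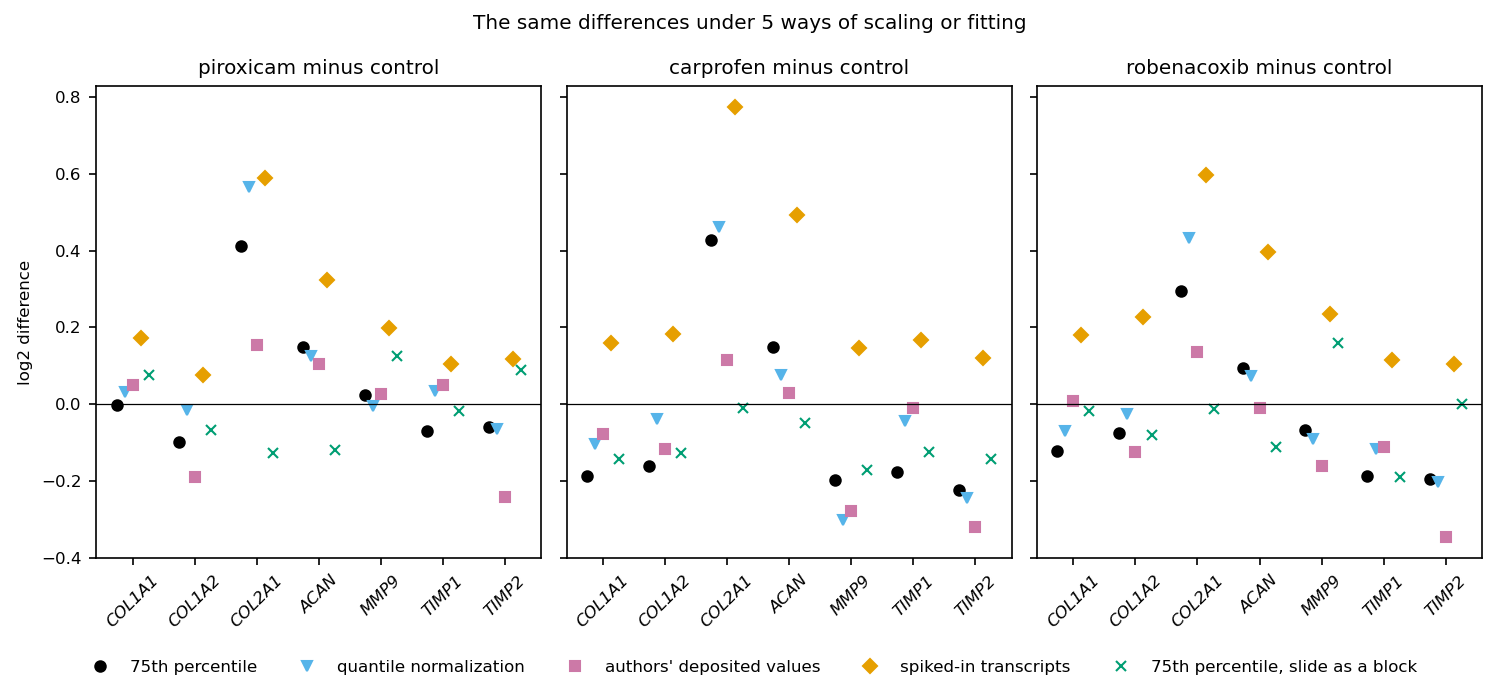
Log2 difference from control of the 7 genes on their brightest tested probe, under the 75th-percentile scale, quantile normalization, the authors' deposited values, scaling to spiked-in transcripts, and the 75th-percentile scale with slide as a block. The spiked-in points lie above 0 for all 7 genes in all 3 panels, and the other settings lie below 0 for TIMP2 except with slide as a block, where the piroxicam and robenacoxib points are 0.090 and 0.0014.

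Between the drugs, 3 pairs were compared. COL1A1 was lower with carprofen than with piroxicam by 0.18 on the log2 scale (SE 0.030, limma adjusted p = 0.0011, 1.14-fold), and TIMP1 was lower by 0.11 (limma adjusted p = 0.040); relative to the spiked-in probes the differences were -0.014 and 0.062. These were 2 of 7 members, where 37.5% of all probes were called, 18.6% higher and 18.9% lower. The 2 groups did not overlap for 4 members, where 47.2% of all probes did not. By probe, 2 of 4 were called lower for COL1A1, with the highest difference at 0.043. For TIMP1 it was 1 of 2, with the other at a limma adjusted p of 0.066. The COL1A1 difference was -0.22 with slide as a block (limma adjusted p = 0.0027) and the same size within the 1 slide that holds arrays of both drugs (limma adjusted p = 0.066), and it was called whichever 1 array was left out. The TIMP1 call was lost when any 1 of 8 arrays was left out (control 1, 2 and 3, piroxicam 1 and 3, carprofen 2 and 3, and robenacoxib 2), with limma adjusted p-values of 0.051 to 0.14. The TIMP1 call was also lost with the block (-0.11, limma adjusted p = 0.059). Beside COL1A1, the block, which called 30.4% of all probes here, called TIMP2 lower with carprofen than with piroxicam (-0.23, limma adjusted p = 0.045), where the difference without it was -0.17 (limma adjusted p = 0.058).

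With robenacoxib against piroxicam, the same 2 genes of 7 were lower, COL1A1 by 0.12 (limma adjusted p = 0.016) and TIMP1 by 0.12 (limma adjusted p = 0.038), where 27.1% of all probes were called, 13.9% higher and 13.2% lower; on the spiked-in reference the differences were 0.0065 and 0.0088. With slide as a block, which called 18.3% of all probes, TIMP1 was the only member called on its reading probe (-0.17, limma adjusted p = 0.029), an estimate that sets the robenacoxib arrays against piroxicam 3 alone, the highest piroxicam array for this gene. Arrays of the 2 drugs did not overlap for 2 members, beside 42.0% of all probes. Without the block, 1 of 4 COL1A1 probes and 1 of 2 TIMP1 probes were called lower. The other TIMP1 probe had a limma adjusted p of 0.053. COL1A2 went the other way, with all 6 probes above 0 (0.022 to 0.11) and 1 of them called higher (limma adjusted p = 0.026). The COL1A1 call was lost without piroxicam 2 (limma adjusted p = 0.057). The TIMP1 call was lost when any 1 of 7 arrays was left out (control 1, 2 and 3, piroxicam 1 and 3, and robenacoxib 1 and 2), with limma adjusted p-values of 0.052 to 0.13.

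Robenacoxib and carprofen could not be separated on any member by limma on the reading probes, with 0 of 7 called and 1 (COL1A2) at an unadjusted p under 0.05, where 8.15% of all probes were called, 4.42% higher and 3.74% lower. The groups did not overlap for 2 members (COL1A1 and COL1A2), beside 27.2% of all probes, and with slide as a block 0 members and 0.253% of all probes were called. The interval of the difference, robenacoxib minus carprofen, was 0.017 to 0.16 for COL1A2, -0.0030 to 0.13 for COL1A1, -0.090 to 0.072 for TIMP1 and -0.11 to 0.17 for TIMP2. Of the 6 COL1A2 probes, 2 were higher with robenacoxib, by 0.13 (limma adjusted p = 0.013) and 0.12 (limma adjusted p = 0.036), and the mean of the 6 probes was called as well. These 2 groups share no slide.

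Other genes of the matrix came from 7 lists of 125 genes in all, of which 17 had a name on this array and 14 a tested probe. With piroxicam 2 rose and 5 fell, with carprofen 2 rose and 3 fell, and with robenacoxib 1 rose and 2 fell, beside the called shares of all probes given above. Their median differences were 0.032, -0.055 and -0.074. With slide as a block 0, 4 and 0 were called, where the block called 5.09%, 16.4% and 1.41% of all probes. No gene of collagen folding and crosslinking could be read, since 0 of 11 had a name here.

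COL7A1, the chain of the anchoring fibrils beneath the epidermis, was the only one of the 14 called higher with all 3 drugs on its reading probe. Of its 2 tested probes, 1 was called higher with piroxicam, 2 with carprofen and 1 with robenacoxib. Its log2 levels were -0.49, -0.52 and -0.49 in control, -0.37, -0.32 and -0.36 with piroxicam, -0.17, -0.19 and -0.12 with carprofen, and -0.33, -0.24 and -0.22 with robenacoxib. All treated arrays lay above all controls. The rise was 0.15 with piroxicam (limma adjusted p = 0.012), 0.34 with carprofen (limma adjusted p = 0.00014, 1.26-fold) and 0.23 with robenacoxib (limma adjusted p = 0.0017), and it was positive under every scaling tried, the spiked-in one included (0.32, 0.68 and 0.53). All 3 calls were kept whichever 1 array was left out, and normexp background correction with the percentile scale ended the piroxicam call (difference 0.14, limma adjusted p = 0.079). The carprofen rise was 0.33 with slide as a block (limma adjusted p = 0.0091), and the others were 0.14 (limma adjusted p = 0.31) and 0.23 (limma adjusted p = 0.26).

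BGN and DCN are small leucine-rich proteoglycans that bind collagen fibrils; BGN was called lower with all 3 drugs and DCN with piroxicam and robenacoxib. BGN (biglycan) fell with piroxicam, carprofen and robenacoxib by 0.12, 0.24 and 0.17 (limma adjusted p = 0.023, 0.00056 and 0.0052), and relative to the spiked-in probes it was higher by 0.059, 0.11 and 0.13. Its piroxicam call was lost without control 1, control 2 or piroxicam 1, with limma adjusted p-values of up to 0.083. DCN (decorin), a dim probe, fell by 0.42 with piroxicam (limma adjusted p = 0.017) and 0.35 with robenacoxib (limma adjusted p = 0.045), and stayed below 0 on the spiked-in reference (-0.25 and -0.052), while the carprofen difference was -0.16 (limma adjusted p = 0.31). The piroxicam call on DCN was lost without control 3 or piroxicam 2 and the robenacoxib call when any 1 of 7 arrays was left out (control 1 and 3, piroxicam 1 and 3, carprofen 3, robenacoxib 1 and 3), with limma adjusted p-values of up to 0.063 and 0.14.

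Among the matrix proteases, MMP3 (stromelysin) had log2 levels of -0.93, -0.95 and -0.90 in control and -1.03, -1.20 and -1.12 with carprofen. It fell with carprofen by 0.19 (limma adjusted p = 0.0097), although it was higher by 0.15 on the spiked-in reference, and with slide as a block the difference was -0.11 (limma adjusted p = 0.15). MMP3 was lower with carprofen than with piroxicam by 0.26 (limma adjusted p = 0.0013), by 0.33 with the block (limma adjusted p = 0.00086). RECK, a membrane-bound inhibitor of metalloproteinases, gave differences from control of -0.0084, -0.15 and -0.098 and was not called.

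The lysosomal proteases moved in unlike ways. CTSS (cathepsin S) was dim, with processed signals of 67.1 to 126.9. Its log2 levels were -4.86, -4.71 and -4.60 in control, -5.10, -4.92 and -5.09 with piroxicam, -4.33, -4.30 and -4.31 with carprofen, and -4.71, -4.83 and -4.68 with robenacoxib. It fell with piroxicam by 0.31 (limma adjusted p = 0.010) and rose with carprofen by 0.41 (limma adjusted p = 0.0022), and these signs held under every scaling tried. With slide as a block the piroxicam call was lost and the carprofen call was kept. The test of carprofen against piroxicam gave 0.73 (limma adjusted p = 5.05e-05), and 0.71 with slide as a block (limma adjusted p = 0.0015). CTSD (cathepsin D) fell with carprofen by 0.25 (limma adjusted p = 0.00036) and with piroxicam by 0.11 (limma adjusted p = 0.027), and was higher by 0.090 and 0.064 on the spiked-in reference; the piroxicam call was lost without control 1, 2 or 3, piroxicam 1 or piroxicam 3 (limma adjusted p up to 0.079). CTSK (cathepsin K), a collagen-cutting protease, fell with piroxicam by 0.12 (limma adjusted p = 0.011), a difference that became 0.055 on the spiked-in reference.

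ITGB3, the beta subunit of the vitronectin receptor, rose with piroxicam by 0.24 (limma adjusted p = 0.037), and under every scaling tried it was higher. This call was lost when any 1 of 7 arrays was left out (control 1 and 2, piroxicam 2 and 3, carprofen 2 and 3, robenacoxib 2), with limma adjusted p-values of up to 0.12. ITGB3 was lower with carprofen than with piroxicam by 0.42 (limma adjusted p = 0.0018) and lower with robenacoxib than with piroxicam by 0.33 (limma adjusted p = 0.0088), and both were called with slide as a block. SOX9, a regulator of COL2A1 and ACAN in cartilage, was lower with robenacoxib than with piroxicam by 0.42 (limma adjusted p = 0.023), a call lost without piroxicam 2 or piroxicam 3 (limma adjusted p up to 0.072). Robenacoxib 2 stood lowest on SOX9 at -1.13, beside -0.66 and -0.65, and without it the difference from piroxicam was -0.27.

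Between the drugs, 3 of the 14 other matrix genes were higher and 4 lower with carprofen than with piroxicam, 2 higher and 3 lower with robenacoxib than with piroxicam, and 1 higher and 1 lower with robenacoxib than with carprofen, where 37.5%, 27.1% and 8.15% of all probes were called. COL7A1 was higher with carprofen than with piroxicam by 0.19 (limma adjusted p = 0.0023), and CTSK by 0.14 (limma adjusted p = 0.0033). CTSD and BGN were lower in that comparison, by 0.14 and 0.12 (limma adjusted p = 0.0053 and 0.013), and relative to the spiked-in probes they stood at 0.026 and 0.047. With robenacoxib, CTSS was higher than with piroxicam by 0.30 and CTSK by 0.13 (limma adjusted p = 0.013 and 0.0062), and MMP3 was lower by 0.18 (limma adjusted p = 0.013) but by 0.13 and without a call (limma adjusted p = 0.096) with slide as a block; relative to the spiked-in probes MMP3 stood at -0.059. CTSS was lower with robenacoxib than with carprofen by 0.43 (limma adjusted p = 0.0087), and CTSD was higher by 0.18 (limma adjusted p = 0.0096). Blocking on slide ended the calls of robenacoxib against carprofen on CTSS and CTSD (limma adjusted p = 0.34 and 0.26), of robenacoxib against piroxicam on CTSS (limma adjusted p = 0.062) and SOX9 (limma adjusted p = 0.097), and of carprofen against piroxicam on BGN (limma adjusted p = 0.057).

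**Figure D4:**
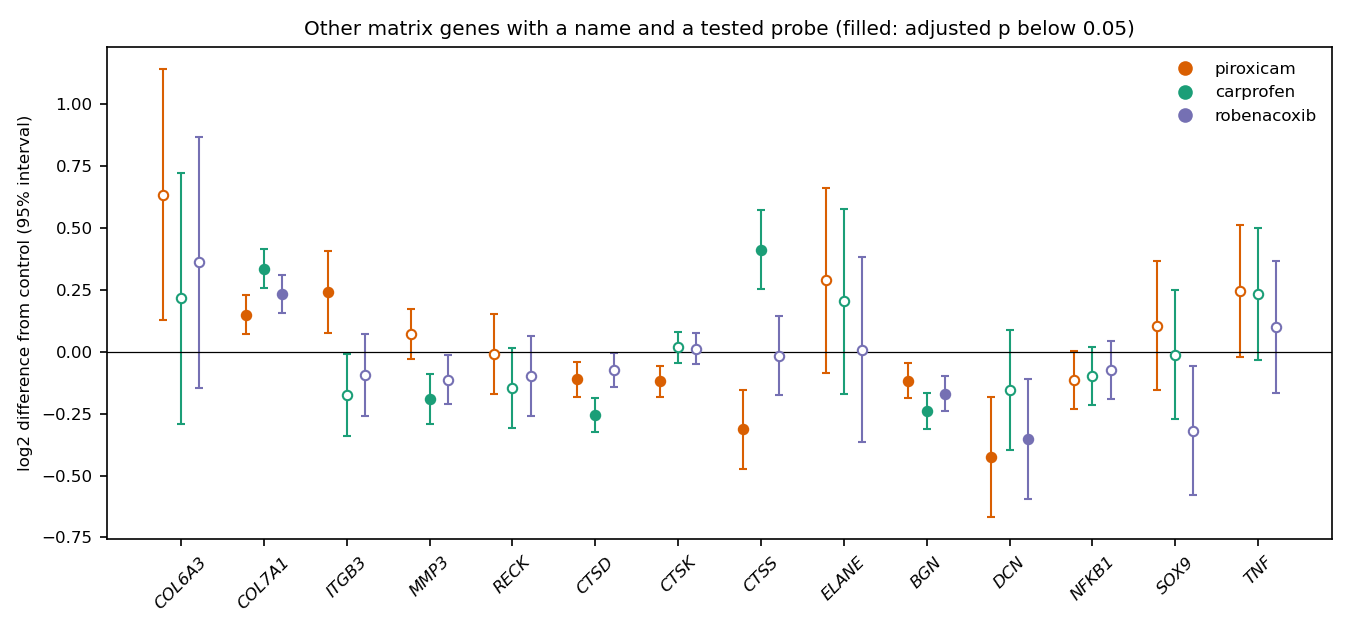
Log2 difference from control, with its 95% interval from limma, of the 14 other matrix genes that had a tested probe, for the 3 drugs on the 75th-percentile scale. COL7A1 is above 0 and called with every drug, CTSS is called lower with piroxicam and higher with carprofen, and BGN is called lower with every drug, although BGN is positive relative to the spiked-in probes.

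Markers of cell types bear on a line that carries collagen transcripts. Of 9 melanocyte markers 4 had a name here: MITF was well above background on all 12 arrays, MC1R on all control and carprofen arrays, on 2 of robenacoxib and on 0 of piroxicam, KIT on few, and TYR (tyrosinase) on 0. Of 11 fibroblast markers 5 had a name (COL1A1, COL1A2, DCN, PDGFRB and S100A4), and all 5 were well above background on all 12 arrays. Their summed linear level, relative to the 75th percentile, was 152.0 to 154.8 in control and 140.7 to 144.1 with piroxicam. It was 133.6 to 137.6 with carprofen and 138.0 to 144.8 with robenacoxib, and 2 of the 5 are members themselves. S100A4 and COL1A2 made up most of this sum, at mean control log2 levels of 6.28 and 6.01. COL1A1, PDGFRB and DCN stood at 3.42, -3.29 and -5.25, so the sum says little of PDGFRB and DCN. Relative to the spiked-in probes S100A4 and COL1A2 were higher with every drug, and the sum was not taken on that scale. Of the 5 fibroblast markers, 1 was called higher and 3 lower with piroxicam, and 0 higher and 3 lower with each of the other drugs. Of all probes, 28.0%, 32.8% and 22.2% were called with piroxicam, carprofen and robenacoxib. The block called 0, 2 and 0 of the 5 markers, and 5.09%, 16.4% and 1.41% of all probes. PDGFRB was the one higher with piroxicam, by 0.50 (limma adjusted p = 0.024), and by 0.11 with slide as a block (limma adjusted p = 0.82). Of its 2 tested probes, 1 was called higher with piroxicam. S100A4 was called lower with all 3 drugs, by 0.13, 0.19 and 0.15 (limma adjusted p = 0.015, 0.0021 and 0.010), but was higher by 0.045, 0.16 and 0.15 on the spiked-in reference. Its piroxicam and robenacoxib calls were lost with the block (limma adjusted p = 0.40 and 0.70), and its piroxicam call also without piroxicam 3 (limma adjusted p = 0.055). Under quantile normalization and in the authors' deposited values none of these 3 S100A4 calls was kept. Of the chondrocyte markers COL2A1, ACAN and SOX9 were the ones named, of the leukocyte markers CD4 and CD8A, and of the endothelial markers VWF and KDR, with KDR above background on no array (0 of 12). Epithelial and osteoblast markers had no name (0 of 6 each). The part of other cells in the differences was not tested.

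Likeness to other named genes was described by Pearson's r of log2 levels over the 12 arrays, among genes read on a probe well above background on all 12. These arrays share groups and slides, so r is given as a description with no test. The genes most like COL1A1 were ARSA (0.95), ATP6V0E1 (0.94) and MMP3 (0.94), and the most opposite was LATS1 (-0.96). For COL1A2 they were HMGN2, DDOST and SEC11A (0.91 each), with HSD17B14 most opposite (-0.83). TIMP1 went most with PSMB9 (0.92), PPP1CA (0.90) and CTXN1 (0.90), and TIMP2 with MAP2K2 (0.94), FUCA1 (0.90) and GJA1 (0.90), and PKD1 was most opposite to both (-0.93 and -0.86). For MMP9 the nearest were CSF2 (0.79), RECK (0.78) and MMP3 (0.77).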

How the data were processed

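The scanner output was deposited as spot intensity, corrected for background by the scanning software and not yet normalized between arrays, together with flags for spots well above background; per the file headers the software was Feature Extraction 10.7.3.1 (GE1_107_Sep09). The authors' deposited value table is on a log2 scale, judged from the values. The submitters' processing notes name limma 3.24.15 for it; its normalization, and the genome build of the probe annotation, are not stated in the material used here. In this work control spots and those flagged as outliers were dropped, repeated spots were averaged per probe, and log2 processed intensity was set relative to the 75th percentile of its array. R 4.3.3 and limma 3.58.1 (lmFit and eBayes, 8 residual degrees of freedom, two-sided tests) fitted all 12 arrays together; the script was tested on simulated data. The number of arrays limits the precision. A RefSeq gene table (UU_Cfam_GSD_1.0) gave names, and no coordinates, to 1313 probes (3.01%). A normexp alternative used the median signal, since the scanner files used here hold no mean signal. No sequence of a probe or transcript was used here.

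All members were named. Of the other matrix genes, up to 4 called per direction and comparison with the largest change were chosen, a gene so chosen being given in other comparisons too, and for likeness the 3 nearest genes and the most opposite one, which are not reported here for ACAN, nor the most opposite gene for MMP9. RECK, S100A4 and the other marker genes given with values of their own stand outside that rule and were picked from the lists after their values were seen. The members and lists were chosen with earlier results of these data known. The alternatives tried were other background corrections and normalizations, the spiked-in reference, the authors' values, other filters, slide or replicate number as a block, fits within 1 slide or to the groups compared only, the mean of a gene's probes, and leaving out arrays.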

Additional observations from a re-analysis of the deposited data

How the results depend on the processing

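Counts of members called are given in the order piroxicam, carprofen and robenacoxib against control, then carprofen and robenacoxib against piroxicam; the values as reported are 1, 4, 3, 2 and 2, with 4 by the F-test. Where not given, a count stayed within 1.5 times the reported one, which does not mean that the same genes were called. Normexp with 75th-percentile scaling gave 0 for robenacoxib against piroxicam, where it called 14.6% of all probes. Quantile normalization gave 1 for robenacoxib, where it called 21.3% of all probes. Under it the carprofen calls on COL1A2 and TIMP1 were lost, while MMP9 was called lower and COL2A1 higher. The piroxicam call was then on COL2A1, higher, instead of COL1A2, lower. Normexp with quantile normalization gave 2, 2 and 1 against control and 1 for robenacoxib against piroxicam. The authors' deposited values gave 2 for carprofen, 1 for robenacoxib and 1 for robenacoxib against piroxicam, beside 20.2%, 17.1% and 18.8% of all probes. Without the filter on dim probes, and equally in fits to only the groups compared, piroxicam had 0 and both drug pairs 1. In that order, 16.6%, 25.0% and 16.6% of all probes were called without the filter. The fits to only the groups compared called 27.0%, 28.6% and 19.6%. The mean of a gene's probes gave 1 for robenacoxib against piroxicam and 1 for robenacoxib against carprofen, beside 27.2% and 8.13% called over the array. Slide as a block gave 0, 1 (COL1A1) and 0 against control, 1 for robenacoxib against piroxicam and 2 by the F-test, beside the block's shares given above. Within 1 slide, carprofen against piroxicam gave 0, where 14.2% of all probes were called. Fits within 1 slide for carprofen against control and robenacoxib against piroxicam have an arm of 1 array, so their counts say nothing about stability. Without control 3 and piroxicam 3 the counts were 0 for piroxicam, 1 for robenacoxib and 1 for each drug pair. The shares of all probes were 14.9%, 14.6%, 30.2% and 20.0%. Leaving out 1 array gave 0 to 1, 3 to 4, 1 to 3, 1 to 3 and 1 to 2, with 0 for robenacoxib against carprofen and 3 to 4 by the F-test. Of all probes, 20.2% to 29.6%, 25.2% to 32.7%, 14.5% to 23.8%, 32.0% to 37.4% and 21.5% to 28.3% were then called. For robenacoxib against carprofen the share was 3.61% to 7.46%. Over 504 single differences without 1 array, 38 lost the call, 4 gained it and none (0) reversed it.

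Scaling to spiked-in transcripts gave 2 members with piroxicam, 5 with carprofen and 4 with robenacoxib, all higher. It called 43.0%, 75.5% and 68.2% of all probes in these comparisons. For carprofen against piroxicam it gave 0 and for robenacoxib against piroxicam 1, where 45.9% and 35.5% of all probes were called. This scaling reversed 14 of 42 differences. With piroxicam COL1A1 became 0.17 and COL1A2 0.076. With carprofen COL1A1 became 0.16, COL1A2 0.18, TIMP1 0.17 and TIMP2 0.12. With robenacoxib COL1A1 became 0.18, COL1A2 0.23, MMP9 0.23, TIMP1 0.11 and TIMP2 0.10. Against piroxicam, TIMP1 became 0.062 with carprofen, and with robenacoxib COL1A1 became 0.0065 and TIMP1 0.0088. These follow from the shift of all probes by that reference. The other reversals were COL1A1 with robenacoxib in the authors' values (0.0087) and TIMP2 with robenacoxib with slide as a block (0.0014), and their cause was not tested. A sign change counts as a reversal only where 1 of the values was called; with slide as a block 14 of 42 differences changed sign uncalled, and within 1 slide 7 of 21.

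Of 18 same-numbered pairs of arrays, 3 had deviations from their group means that correlated above 0.1 (median -0.16). Among 36 pairs with unlike numbers there were 16 (median 0.064). These values show no likeness by replicate number, but cannot tell whether same-numbered samples were handled together. With the replicate number as a block, piroxicam had 0 members called and each drug pair with piroxicam 1. Of all probes, 23.3% were called with piroxicam, 33.7% for carprofen against piroxicam and 23.2% for robenacoxib against piroxicam. Signal over background limits COL2A1, ACAN and MMP9 most.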
